A study of Oryza sativa with 4 samples.

Results

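The YUCCA genes encode flavin-dependent monooxygenases that make the plant hormone auxin. Chromatin accessibility at these genes was measured in rice (Oryza sativa) leaf blades by ATAC-seq, an assay that reads where the Tn5 transposase can insert into open DNA. Both genotypes, the Oshmgb1 mutant (2 libraries) and the wild type (WT, 2 libraries), were seedlings kept for 28 days under what the labels name HP. OsHMGB1 belongs to the high mobility group box proteins, which bind and bend DNA in chromatin, and the sources used here do not say what the mutation is, how many lines carried it or whether plants were pooled. Peaks were taken as members where the deposited gene symbol began with YUC and a number or the description named an indole-3-pyruvate monooxygenase. This gave 16 of the 46114 listed peaks, at 10 of 27130 genes with a listed peak. The family was selected on a measured outcome. An exon peak of LOC_Os02g17230 (symbol YUC10) and an intron peak of LOC_Os01g25470 (symbol YUC5) had been called more accessible in Oshmgb1, and their differences are therefore given as a description.

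Auxin in plants is made mainly from tryptophan through indole-3-pyruvate. Tryptophan aminotransferases form indole-3-pyruvate, and YUCCA enzymes convert it to indole-3-acetic acid, the main natural auxin, in the step usually taken as rate-limiting. In Arabidopsis the family members act in different organs and stages, and loss of several together disturbs leaves, veins and flowers. The symbols in the deposited table follow Arabidopsis names and are not those of the rice family, so YUC5 stands at 3 rice genes and YUC10 at 2. The gene identifier is used here to tell them apart.

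The libraries held 10400677 and 8516630 reads in listed peaks for Oshmgb1 replicates 1 and 2, against 7228483 and 8183354 for WT replicates 1 and 2. Values per library are reads per 1000000 reads in listed peaks (CPM), scaled by TMM normalisation, and each log2 fold change sets Oshmgb1 over WT. A peak was called at an edgeR quasi-likelihood p under 0.05 after Benjamini-Hochberg adjustment over all listed peaks. The promoter peak of the mutated gene itself (LOC_Os06g51220 by background knowledge, listed as HMGB2) had 112 and 115 CPM in Oshmgb1 and 124 and 136 CPM in WT (edgeR adjusted p 0.396), and this does not test the genotype label. Peaks at genes with mesophyll descriptions (55 peaks at 34 genes, small Rubisco subunits, chlorophyll-binding and photosystem proteins) had a median density of 49.3 CPM per kb in Oshmgb1 and 55.7 in WT. For root descriptions (53 peaks) it was 26.5 in Oshmgb1 and 26.7 in WT, for epidermis (21 peaks) 29.2 in Oshmgb1 and 31.4 in WT, and for meristem (14 peaks) 25.4 in Oshmgb1 and 29.5 in WT. The 3 vascular peaks had 22.2 in Oshmgb1 and 20.01 in WT. No peak of the 5 marker sets was called, where 0.321% of all listed peaks were called higher and 0.0824% lower. At such shares a count of 0 in these small sets says little. In whole leaf blades, a change in the share of cells with an open site and a change within each cell cannot be told apart.

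All 16 peaks carry the same KEGG orthology entry, that of indole-3-pyruvate monooxygenase in tryptophan metabolism, and no other listed peak does. The description names that enzyme for 13 of the peaks. LOC_Os12g32750 (YUC9, 2 peaks) is described only as an expressed protein, and LOC_Os01g25470 as dimethylaniline monooxygenase-like, an older name for the wider class of flavin monooxygenases. The peaks lie on 7 chromosomes, with 3 peaks at LOC_Os01g16714 and at LOC_Os03g06654, 2 at LOC_Os04g03980 and LOC_Os12g32750, and 1 at each of the other 6 genes. By the deposited annotation 6 peaks are intronic (37.5%, against 18.0% of all listed peaks) and 4 lie in promoters within 1 kb (25.0% against 25.7%). A further 3 are in 5′ UTRs (18.8% against 6.97%), and 1 each is exonic, in a 3′ UTR or downstream. By that annotation 6 of the 10 genes, both selected ones among them, had no promoter peak, though some of their peaks cover the gene start. The median peak length was 563 bp in the family and 560 bp over all peaks.

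**Figure D1:**
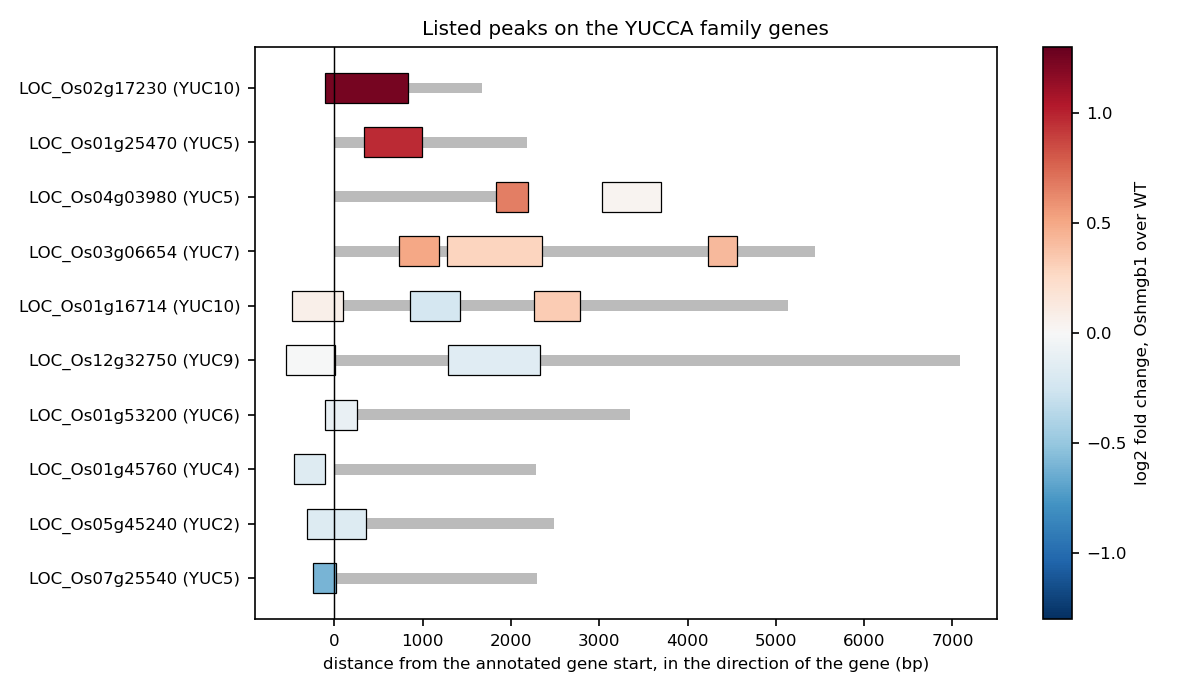
Position of the 16 listed peaks (boxes) on the 10 YUCCA family genes (grey bars), in bp from the annotated gene start in the direction of the gene, coloured by log2 fold change of Oshmgb1 over WT. The peak of LOC_Os02g17230 covers its gene start, from 111 bp upstream, and that of LOC_Os01g25470 begins 332 bp inside the gene.

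The exon peak of LOC_Os02g17230 was the family member with the largest difference, with accessibility more than doubled in the mutant. It lies on chromosome 2, 9877494 to 9878441 (coordinates as deposited, genome build not given in the sources used here). It is annotated to exon 1 of 4 but is 948 bp long, so that it runs from 111 bp upstream of the gene start and takes in 50.1% of this 1672 bp gene. It had 192 and 178 reads in the Oshmgb1 libraries, or 18.3 and 20.8 CPM, against 60 and 66 reads in the WT libraries, or 8.42 and 8.06 CPM. Both Oshmgb1 libraries lay far above both WT libraries, and the replicates of each genotype lay close together. The log2 fold change was 1.24 ± 0.21 (SE), a 2.37-fold difference with a 95% interval of 1.77 to 3.16.

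The intron peak of LOC_Os01g25470 was nearly doubled in Oshmgb1. It lies on chromosome 1, 14443900 to 14444564, and is annotated to intron 1 of 1 of a 2180 bp gene. It runs from 332 to 996 bp past the gene start. It had 239 and 237 reads in Oshmgb1, or 22.8 and 27.6 CPM, against 97 and 99 reads in WT, or 13.6 and 12.1 CPM. The genotypes did not overlap, and the Oshmgb1 libraries were further apart from each other than the WT libraries. The log2 fold change was 0.97 ± 0.19 (SE), a 1.96-fold difference with a 95% interval of 1.52 to 2.53.

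**Figure D2:**
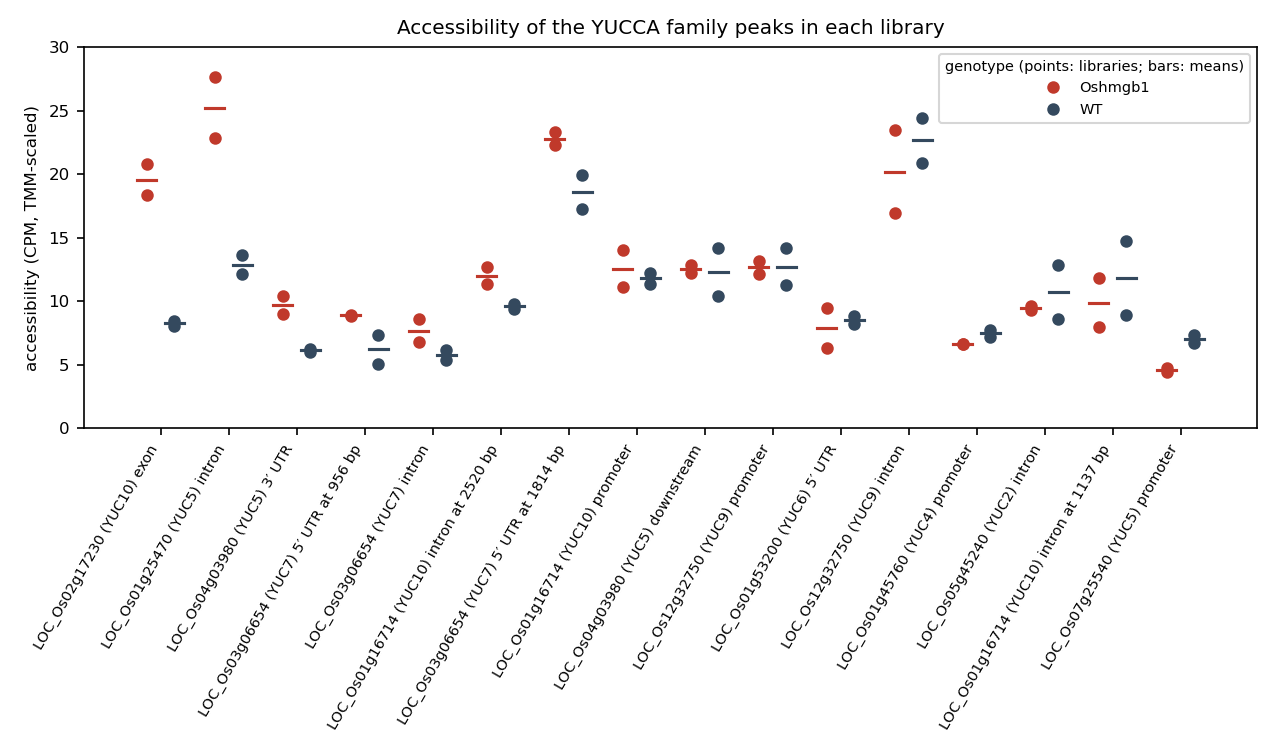
Accessibility (CPM, TMM-scaled) of each of the 16 YUCCA family peaks in every library, ordered by log2 fold change, with Oshmgb1 (2 libraries, red) left of WT (2 libraries, blue) and bars for the means. The peaks of LOC_Os02g17230 and LOC_Os01g25470 average 19.5 and 25.2 CPM in Oshmgb1, against 8.24 and 12.9 CPM in WT.

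These 2 of 16 peaks (12.5%) were called higher, against a background of 0.321% of all listed peaks, and 0 were called lower, against 0.0824%. Since the family was selected on these calls, nothing is read from the first share. The edgeR adjusted p that selected them was 6.64e-05 for LOC_Os02g17230 and 7.61e-04 for LOC_Os01g25470, and the nearest family peak not called had 0.214. DESeq2 called the same 2 peaks, where 0.0911% of all peaks were called higher. The authors' deposited table lists LOC_Os02g17230 at an FDR of 0.00820 and LOC_Os01g25470 at 0.0619, where 0.0889% of all peaks were higher at an FDR under 0.05. Without Oshmgb1 replicate 2, which had the higher of the mutant values, the LOC_Os01g25470 peak stood at 0.83 on the log2 scale with an adjusted p of 0.149 and was no longer called. The LOC_Os02g17230 peak had a log2 fold change between 1.15 and 1.34 under the 13 alternatives run. These refit the reads on which the peak was selected, so nothing further is read from them. The fits without a filter and with a mean of at least 30 reads removed no peak and repeat the main fit.

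Among the other 8 genes, LOC_Os03g06654 (YUC7) had 3 peaks, and in each of them both Oshmgb1 libraries lay above both WT libraries, as they did in 21.6% of all listed peaks. None of the 3 passed the threshold. The first 5′ UTR peak (chromosome 3, 3355772 to 3356222) had 8.88 and 8.86 CPM in Oshmgb1 and 5.05 and 7.33 CPM in WT, with a log2 fold change of 0.51 ± 0.24 (SE) and an edgeR adjusted p of 0.376. The second 5′ UTR peak (3356317 to 3357394) had 23.3 and 22.3 CPM in Oshmgb1 and 17.3 and 19.9 CPM in WT. Its log2 fold change was 0.29 ± 0.17, with an adjusted p of 0.513. The intron peak near the 3′ end had 8.59 and 6.76 CPM in Oshmgb1 and 6.17 and 5.38 CPM in WT, with 0.42 ± 0.24 and an adjusted p of 0.496. Without single libraries these 3 log2 fold changes ran from 0.20 at the lowest to 0.81 at the highest. Since the genotypes did not overlap in these peaks, the sign could hardly change, and nothing is read from it.

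Reads were also summed over all peaks of each gene and fitted over the 27130 genes, a choice made after the values were seen. LOC_Os03g06654 then had 40.9 and 37.9 CPM in Oshmgb1 and 28.4 and 32.6 CPM in WT. The genotypes did not overlap, but the log2 fold change of 0.37 ± 0.13 (SE) was not called (edgeR adjusted p 0.204). LOC_Os04g03980 had 0.28 ± 0.17 and an adjusted p of 0.508. LOC_Os02g17230 and LOC_Os01g25470 have 1 peak each, so their sums are the reads on which the family was selected, and nothing is read from their calls here (0.464% of all genes were called higher). None of the other 8 family genes was called.

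The nearest to the threshold of the peaks not called was the 3′ UTR peak of LOC_Os04g03980 (YUC5; chromosome 4, 1813878 to 1814244). It had 10.4 and 8.98 CPM in Oshmgb1 against 6.03 and 6.23 CPM in WT, without overlap. The log2 difference was 0.66 ± 0.24 (SE), at an edgeR unadjusted p of 0.00655 and an adjusted p of 0.214. The second peak of that gene, downstream of its end, had 12.2 and 12.8 CPM in Oshmgb1, between the WT values of 14.2 and 10.4 CPM, and a log2 fold change of 0.03 ± 0.21. The libraries of the 2 genotypes overlapped there, and the difference between the 2 peaks of the gene was not tested.

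The 4 promoter peaks had fold changes on both sides of 0 and none was called. The promoter peak of LOC_Os07g25540 (YUC5; chromosome 7, 14620484 to 14620747) was the lowest of the family on the log2 scale. It had 4.77 and 4.43 CPM in Oshmgb1 against 6.73 and 7.33 CPM in WT, again without overlap. On the log2 scale the difference was -0.61 ± 0.25 (SE), at an edgeR unadjusted p of 0.0156 and an adjusted p of 0.279. It rests on 38 to 60 reads per library and was the shortest peak of the family, at 264 bp. The promoter peak of LOC_Os01g45760 (YUC4) had 6.59 and 6.65 CPM in Oshmgb1 and 7.72 and 7.21 CPM in WT, with a log2 fold change of -0.17 ± 0.24. Those of LOC_Os01g16714 (YUC10) and LOC_Os12g32750 (YUC9) had log2 fold changes of 0.08 ± 0.21 and -0.0033 ± 0.21, with overlapping libraries.

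Of the remaining peaks, 1 kept the genotypes apart. In the intron peak of LOC_Os01g16714 that lies 2520 bp past its start, the Oshmgb1 libraries had 12.7 and 11.3 CPM and the WT libraries 9.40 and 9.78 CPM (log2 fold change 0.33 ± 0.22). The other intron peak of that gene, 1137 bp past the start, had 11.8 and 7.93 CPM in Oshmgb1 and 14.7 and 8.92 CPM in WT, so that each genotype's libraries were further apart than the genotype means. Replicate spread of this kind was also seen at the 5′ UTR peak of LOC_Os01g53200 (YUC6), with 9.45 and 6.30 CPM in Oshmgb1 and 8.84 and 8.19 CPM in WT. The gene-start peak of LOC_Os05g45240 (YUC2), annotated as intronic, had 9.64 and 9.33 CPM in Oshmgb1 and 8.56 and 12.8 CPM in WT. The intron peak of LOC_Os12g32750 had 23.5 and 16.9 CPM in Oshmgb1 and 20.9 and 24.4 CPM in WT. The log2 fold changes of these last 4 peaks ran from -0.23 to -0.10, and each changed sign when some single library was left out.

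**Figure D3:**
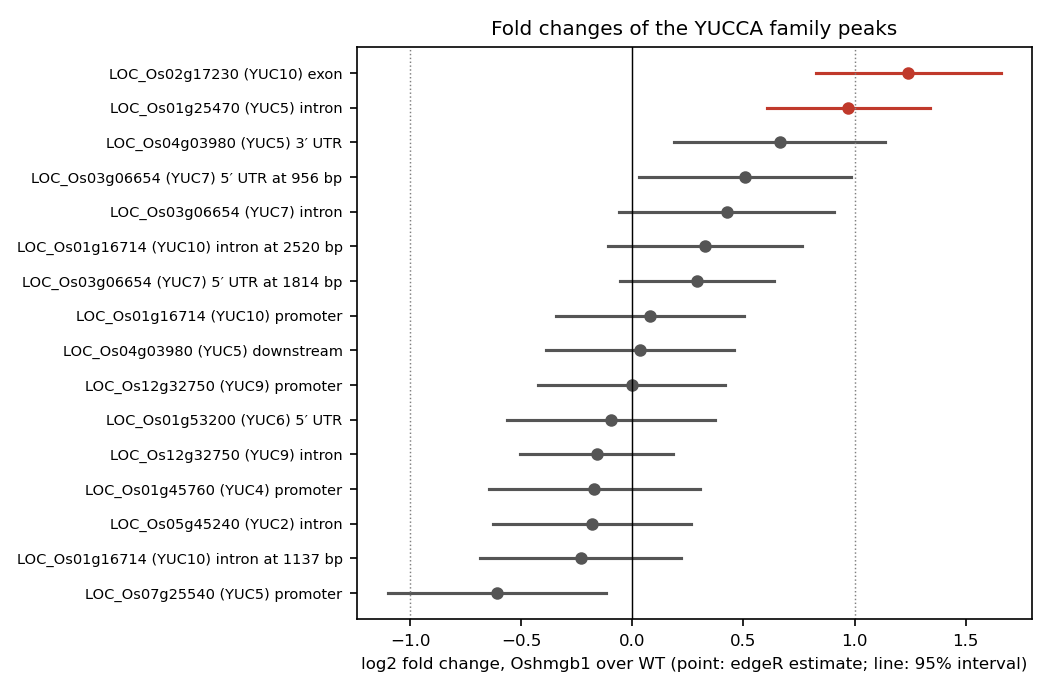
Log2 fold change (Oshmgb1 over WT) of the 16 YUCCA family peaks, as edgeR estimates (points) with 95% intervals (lines), called peaks in red; dotted lines mark a 2-fold difference. The called peaks are at 1.24 and 0.97, and the other 14 lie between -0.61 and 0.66.

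Over the 14 peaks not called, the median log2 fold change was 0.02, against -0.01 over all listed peaks. There were 7 positive and 7 negative values. Their standard deviation was 0.34, against 0.27 over all peaks, and their median SE was 0.23, against 0.20. At an unadjusted edgeR p under 0.05 there were 3 of the 14 (21.4%), against 12.2% of all peaks. At an unadjusted DESeq2 p under 0.05 there were 0 of the 14, against 3.78% of all peaks. The authors' deposited p-values also gave 0, against 4.79%. Both Oshmgb1 libraries lay above both WT libraries in 7 of the 16 family peaks (43.8%, against 21.6% of all peaks) and below them in 2 (12.5%, against 21.6%). The 7 include the 2 peaks on which the family was selected, and without those the count was 5 of 14 (35.7%). The edgeR 95% intervals of 12 of the 16 (75.0%, against 95.2% of all peaks) stayed inside a 2-fold difference. The other 4 include the 2 called peaks, whose estimates are themselves near or above 2-fold. For the 3′ UTR peak of LOC_Os04g03980 and the promoter peak of LOC_Os07g25540, the depth does not limit the difference to less than 2-fold. At LOC_Os02g17230 the SE was 0.27 in DESeq2 against 0.21 in edgeR, and at LOC_Os01g25470 0.24 against 0.19. The count of 12 belongs to edgeR, and no such count was made for DESeq2. The family peaks were weaker than most: their median was 10.9 CPM in Oshmgb1 and 10.1 CPM in WT, against 14.8 CPM in each genotype over all peaks.

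To set the peaks beside each other, CPM were divided by peak length. In WT, 15 of the 16 peaks lay below the median density of all listed peaks, and in Oshmgb1 14 did. At the low end in WT stood the LOC_Os02g17230 peak, with 20.6 ± 1.81 CPM per kb in Oshmgb1 and 8.69 ± 0.263 in WT (SD, n = 2 each). In WT this was the 8th lowest density of all 46114 listed peaks, while in Oshmgb1 it stood at percentile 20.2. The sources used here do not say whether peaks were called per library, per genotype or on pooled reads, and the part of peak calling in this low rank was not tested. The LOC_Os01g25470 peak had the highest density of the family in Oshmgb1, 37.9 ± 5.13 CPM per kb (percentile 83.7), and 19.3 ± 1.61 in WT (percentile 17.9), where it was the 8th of the 16. At the top in WT was the promoter peak of LOC_Os07g25540, with 17.4 ± 0.916 CPM per kb in Oshmgb1, the 14th of the 16, and 26.6 ± 1.60 in WT. The lowest in Oshmgb1 was the LOC_Os05g45240 peak, at 14.1 ± 0.328 CPM per kb, against 15.9 ± 4.48 in WT. Between these ends the order in WT is weak, since the values of neighbours in that order overlapped in 13 of 15 pairs. The exceptions were the first and the last pair.

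Neighbouring peaks were examined within 20 kb of each called YUCCA peak, and none was called. Of all listed peaks, 0.321% were called higher and 0.0824% lower. Around LOC_Os02g17230 there were 2 other peaks, the nearer 6547 bp away at LOC_Os02g17220 (ARASP2, a membrane metalloprotease by its description). It had 6.68 and 8.63 CPM in Oshmgb1 and 10.7 and 9.65 CPM in WT, with a log2 fold change of -0.41 ± 0.23 (SE) and an edgeR adjusted p of 0.476. Around LOC_Os01g25470 there were 6 other peaks at 4 genes, with log2 fold changes from -0.21 to 0.27. The nearest, 2043 bp away, is the 5′ UTR peak of LOC_Os01g25484, described as the chloroplast ferredoxin-nitrite reductase, the enzyme that reduces nitrite to ammonium. It had 51.1 and 58.3 CPM in Oshmgb1 and 51.3 and 50.7 CPM in WT, with a log2 fold change of 0.10 ± 0.12. No peak beside either called one had an unadjusted edgeR p under 0.05, where 12.2% of all listed peaks did. With so few neighbouring peaks, these counts of 0 say little.

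**Figure D4:**
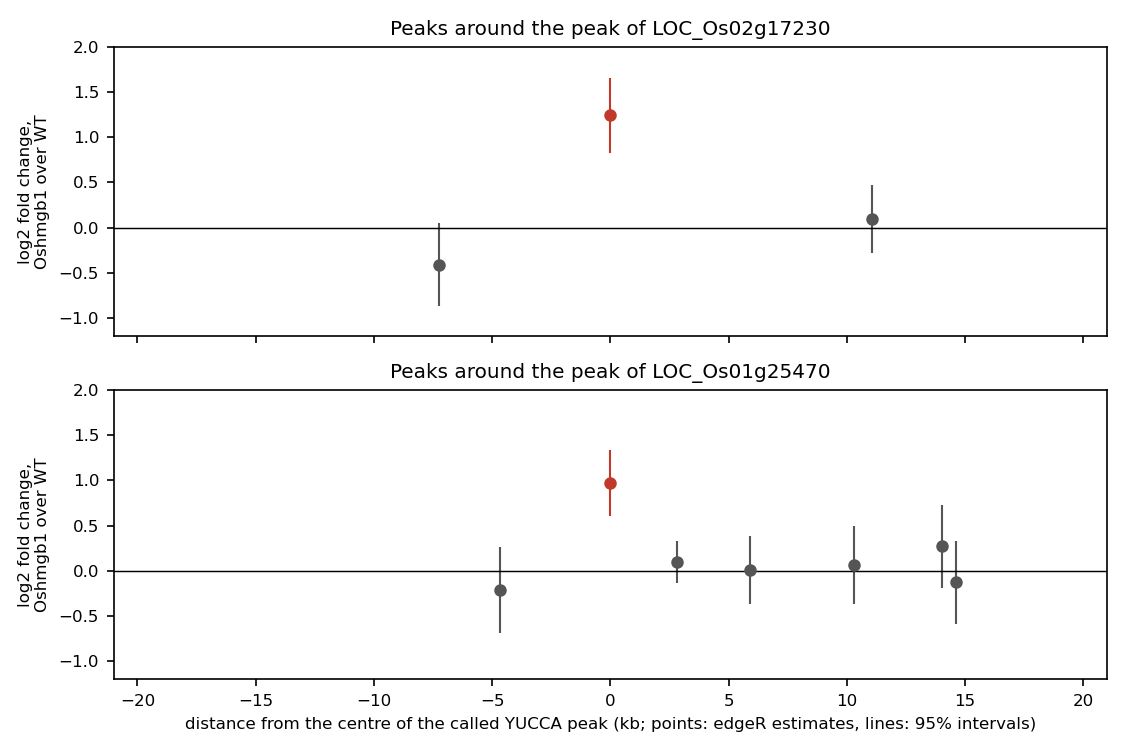
Log2 fold change (Oshmgb1 over WT; points are edgeR estimates, lines 95% intervals) of listed peaks against their distance in kb from the centre of the called peak at LOC_Os02g17230 (top) and at LOC_Os01g25470 (bottom). The called peaks, in red at 1.24 and 0.97, stand above neighbours between -0.41 and 0.27.

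For each called peak, the 3 peaks with the closest profile over the 4 libraries were sought among other genes that carry a symbol. Closeness was the Euclidean distance between log2 CPM centred on their own mean. Those closest to LOC_Os02g17230 were at LOC_Os03g44240 (an integrase core domain protein, distance 0.0587), LOC_Os06g25270 (0.158) and LOC_Os07g39630 (an MO25-like protein by its description, 0.159). The last had 52.2 and 55.4 CPM in Oshmgb1 and 25.7 and 24.6 CPM in WT. Those closest to LOC_Os01g25470 were at LOC_Os11g45390 (WAV3, distance 0.0688), LOC_Os12g26290 (DOX1, an alpha-dioxygenase, 0.0848) and LOC_Os04g33190 (ACS, an acetyl-coenzyme A synthetase, 0.0928). None of the 6 belongs to the auxin pathway lists, and with 4 libraries a close profile says little beyond a like difference between genotypes.

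The other steps of the auxin pathway were taken from lists set by words in the descriptions. A list of other flavin monooxygenases (17 peaks at 11 genes) was added by enzyme class and not as a step of the pathway. The resulting 7 lists, called the auxin pathway lists here, hold 107 peaks at 59 genes outside the family. None of these peaks was called by edgeR, DESeq2 or in the authors' deposited table, where 0.321% of all peaks were higher and 0.0824% lower in edgeR. Before adjustment, 9 of them (8.41%, against 12.2% of all peaks) had an edgeR p under 0.05, 2 had a DESeq2 p under 0.05 (3.78% of all peaks did), and 3 such p-values stood in the authors' deposited table (4.79% of all peaks). By each of these counts the lists' share lay below that of all peaks. The median log2 fold change over the 107 was 0.00, and the edgeR 95% interval excluded a 2-fold difference in 106 (99.1%, against 95.2% of all peaks).

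Upstream of the family, genes of tryptophan supply had 26 peaks, with 1 higher and 1 lower at an unadjusted p under 0.05. The smallest p was at an intron peak of LOC_Os03g61120 (ASA1, the alpha subunit of anthranilate synthase, which opens tryptophan synthesis). It had 19.9 and 28.0 CPM in Oshmgb1 and 16.8 and 15.5 CPM in WT, with a log2 fold change of 0.56 ± 0.18 (SE) and an edgeR adjusted p of 0.154. The tryptophan aminotransferase step, which makes the substrate of YUCCA enzymes, had 4 peaks at a single gene, LOC_Os01g52010 (TAR4). Its intron peak with the smallest p had 8.02 and 6.41 CPM in Oshmgb1 and 6.31 and 4.15 CPM in WT, with 0.49 ± 0.25 and an adjusted p of 0.429. Other indole routes had 5 peaks, the lowest p being at LOC_Os02g42330 (NIT4, a nitrilase, 0.34 ± 0.18, adjusted p 0.450).

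Downstream of auxin synthesis, genes of auxin conjugation and release had 25 peaks. The smallest p was at the promoter peak of LOC_Os01g61440, described as the dioxygenase DAO, which oxidises auxin. It had 70.9 and 72.3 CPM in Oshmgb1 and 58.4 and 55.8 CPM in WT, without overlap, and a log2 fold change of 0.33 ± 0.11 (SE) with an edgeR adjusted p of 0.170. Auxin carriers had 18 peaks and the largest median of the 7 lists, 0.13. Among them the promoter peak of LOC_Os10g05690 (auxin transporter-like protein 3) had 8.59 and 8.63 CPM in Oshmgb1 and 6.31 and 4.77 CPM in WT, with 0.64 ± 0.24 and an adjusted p of 0.242. Auxin perception had 12 peaks, with -0.42 ± 0.18 at an exon peak of LOC_Os03g08850, a TIR1-like receptor (adjusted p 0.315). The other flavin monooxygenases, related to the family by enzyme class, had 17 peaks and a median of 0.10. Their smallest p was at LOC_Os06g10180 (FMO1), with 0.41 ± 0.19 and an adjusted p of 0.369.

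**Figure D5:**
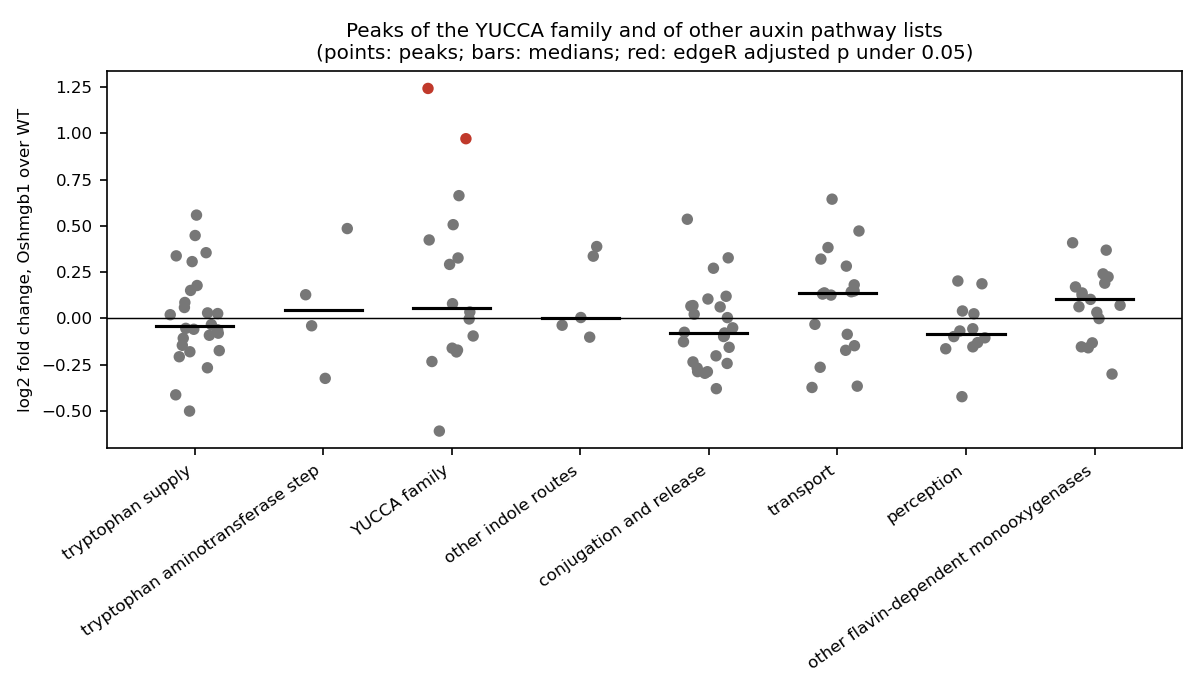
Log2 fold changes (Oshmgb1 over WT) of single peaks (points) and their median (bars) in the YUCCA family and 7 other lists, with called peaks in red. The lists hold auxin pathway steps and, by enzyme class, other flavin monooxygenases. The only red points are the 2 YUCCA peaks at 1.24 and 0.97, on which the family was selected, and the 107 peaks of the other lists lie between -0.50 and 0.64.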

How the data were processed

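ATAC-seq reads were tested as the read counts that the authors deposited for every merged peak and library, which are whole and carry no normalisation. The RPKM deposited by the authors served as a second scaling of the same reads and gave library totals, as medians over peaks with more than 300 reads. The authors' log2 fold change, and their deposited p-value and FDR, were an alternative set of calls. Per the submitters' processing notes Bowtie2 2.4.4 and MACS2 2.1.2 were used, beside fastp 0.23.0, bcl2fastq 2.19 and ChIPseeker 1.16.1 (genome build, Tn5 shift and duplicate removal not given in the sources used here); reads kept as duplicates would add counts without molecules. Columns of other samples numbered 0.

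Counts of all 46114 peaks were fitted in R 4.3.3 with edgeR 4.0.16 (TMM, default filter, which removed no peak, quasi-likelihood test, no covariate), with SE from the F statistic. DESeq2 1.42.0 and limma 3.58.1 (loess offsets) served alternatives, and matplotlib 3.10.9 drew the figures. The replicates of each genotype carry separate labels, and their counts were not identical (chi-square over degrees of freedom 2.25 in Oshmgb1 and 2.50 in WT). With duplicate removal not given, this ratio does not show that the libraries are distinct. No label states that they came from separate plants, so the p-values rest on a spread between libraries that could be technical.

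The members and lists were chosen with earlier results of these data known. All family peaks are named, and from each pathway list the peak with the lowest p where none was called, the nearest neighbours and the 3 closest profiles. Of the 10 family genes, 0 matched the RefSeq gene table, so names are those of the deposited table and no sequences are shown.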

Additional observations from a re-analysis of the deposited data

How the results depend on the processing

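Over all peaks, 148 were called higher and 38 lower. DESeq2 gave 42 and 3, the authors' deposited FDR 41 and 6, the intensity-dependent offset 95 and 46, and library totals behind the RPKM 133 and 88. Leaving out 1 library in turn gave 62 to 356 higher and 13 to 174 lower, the most of both without WT replicate 2, where the lone library is assumed to vary like the others. Of the 2 YUCCA peaks called higher, 1 passed the authors' FDR, and leaving out 1 library gave 1 to 2. In both cases the LOC_Os01g25470 peak missed the threshold while its log2 fold change was 0.93 in the authors' deposited table and 0.83 without Oshmgb1 replicate 2, against 0.97 with all libraries, and the cause was not tested. For auxin pathway lists, leaving out 1 library gave 0 to 1 called peaks, the 1 being a peak downstream of LOC_Os07g08430 (TSA1, log2 fold change -0.86, adjusted p 0.0411), named after its values were seen, without WT replicate 2.

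With the replicate number as a block, 146 peaks were higher and 33 lower, and the 2 YUCCA calls stood. Deviations of same-numbered libraries from their genotype means correlated at -0.0362, so the numbers are taken as names only. Without a filter and with a mean of at least 30 reads no peak was removed. A wider word search found 30 peaks, 13 of them in the family. Its words do not occur in the description of LOC_Os01g25470, so of the 2 calls only that of LOC_Os02g17230 was among the 30. Density ranks in WT were the same with the deposited RPKM. These hold the same reads and peak lengths and differ only in library scaling, so like ranks were nearly fixed in advance. Of the family's log2 fold changes under the alternatives, reads summed per gene among them, 208 moved by less than 1 SE and 16 by more. No called one changed sign, which libraries without overlap between genotypes nearly fix in advance. The 208 include the 2 filter settings, which repeat the main fit, and sums at genes with 1 peak, which hold the same reads. All of the 16 came from leaving out a library or from the sums per gene. At 36 to 246 reads per peak and library, the SE of the family limits what can be seen.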

Other observations

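Tryptophan metabolism as the deposited KEGG column defines it was examined after values were seen. Outside the YUCCA family it holds 81 peaks at 38 genes, none of them called by edgeR, DESeq2 or in the authors' deposited table, with 3 higher and 7 lower at an unadjusted edgeR p under 0.05. These are 12.3% of the 81, against 12.2% of all listed peaks. The smallest p was at the promoter peak of LOC_Os11g08300 (ALDH3H1, an aldehyde dehydrogenase), with 34.7 and 34.5 CPM in Oshmgb1 and 49.1 and 45.1 CPM in WT. On the log2 scale the difference was -0.44 ± 0.13 (SE; edgeR adjusted p 0.0904). The median over the 81 peaks was -0.06, against -0.01 over all listed peaks.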
